A study of Mus musculus with 2 samples.

Results

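The fibroblast growth factor genes described here are the ligands Fgf1, Fgf2, Fgf7 and Fgf10, the receptors Fgfr1, Fgfr2, Fgfr3 and Fgfr4, and the docking protein Frs2. Every probe set that the platform annotation listed under exactly 1 gene symbol, that of a member, was taken. This gave 20 probe sets for 8 of the 9 genes, among 34945 such probe sets for 18193 genes. No probe set was listed under Frs2 in the annotation used, so no signal of Frs2 is given here. The samples were ventral prostate RNA of male C57BL/6J mice aged 3 months, from a U19/Eaf2 +/+ group and a U19/Eaf2 -/- group. U19/Eaf2 is an androgen-induced partner of transcription elongation factors. Each group held 1 sample on 1 Affymetrix array, and the sources used here do not say whether animals were pooled. A test between groups cannot be made from single arrays, and the comparisons below describe these 2 arrays only.

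In the prostate, stromal fibroblasts and smooth muscle are known to make FGF7, also called keratinocyte growth factor, and FGF10. Both act on the epithelial splice form of FGFR2, and FGF10 is required for prostatic buds to grow. FGF1 and FGF2 bind several receptors and have no classical secretion signal. All need heparan sulfate to bind firmly, and the activated receptors pass the signal on through FRS2 to the ERK cascade, which sprouty and dual-specificity phosphatase proteins restrain.

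The upstream sequences of Fgf7 and Fgf10 are shown because these are the paired stromal ligands, and that of Fgfr4 because it had the lowest gene-level ratio among the members. Each is the 250 bases before the RefSeq start on GRCm38.p6, at chr2:126034408-126034657, chr13:118714449-118714698 and chr13:55152568-55152817, all on the plus strand. Capitals mark GGGCGG, the GC box, on either strand.

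Fgf7: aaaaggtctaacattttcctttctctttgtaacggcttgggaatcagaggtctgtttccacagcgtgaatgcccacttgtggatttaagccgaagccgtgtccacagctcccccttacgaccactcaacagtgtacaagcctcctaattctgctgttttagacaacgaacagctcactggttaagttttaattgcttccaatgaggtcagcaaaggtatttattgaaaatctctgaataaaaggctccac
Fgf10: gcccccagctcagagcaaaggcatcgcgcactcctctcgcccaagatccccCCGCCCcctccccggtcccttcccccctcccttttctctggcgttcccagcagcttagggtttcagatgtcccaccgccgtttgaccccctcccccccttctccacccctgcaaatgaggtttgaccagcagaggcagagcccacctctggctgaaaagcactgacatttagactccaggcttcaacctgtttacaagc
Fgfr4: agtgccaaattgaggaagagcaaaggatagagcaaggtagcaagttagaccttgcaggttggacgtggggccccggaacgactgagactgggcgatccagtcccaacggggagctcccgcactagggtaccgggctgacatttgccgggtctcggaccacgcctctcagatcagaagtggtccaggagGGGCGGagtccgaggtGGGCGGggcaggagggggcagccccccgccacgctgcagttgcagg

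The Fgf7 stretch was 43.6% G or C with 6 CG pairs, the Fgf10 stretch 61.2% with 8, and the Fgfr4 stretch 64.0% with 15, against medians of 52.4% and 6 over 32851 promoter windows of the same length. The GC box was present in 6 of 8 windows of 7 member genes and in 32.7% of all windows. Frs2 was among these 7 genes, whereas Fgf1 and Fgfr1 had no window. TATAAA, the TATA box, occurred in 0 of the 8 and in 12.4% of all, and AGAACA, a core of androgen receptor elements, in 0 of the 8 and in 16.1% of all. The arrays measured transcripts, and nothing here measured these promoters.

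Signals are linear probe-set intensities. Both arrays had been scaled to a 2% trimmed mean of 500.0. A signal of 166, the 50th percentile of all non-control signals, served as the floor: lower values were raised to it, and a ratio with 1 array below it is a bound. Ratios are log2 of the array labelled knockout over the wild-type array. Levels of different probe sets cannot be compared on such arrays, so no order of expression among the members is given. The Eaf2 probe set read 691 in wild type and 702 in the array labelled knockout. The labels do not say which part of the transcript was deleted, so that reading leaves the genotype unchecked. The 3' over 5' signal of Actb, a guide to RNA degradation, was 1.25 in wild type and 1.65 in the array labelled knockout. That of Gapdh was 0.714 in wild type and 0.847 in the array labelled knockout.

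Most FGF probe sets read somewhat lower on the array labelled knockout, and none of those bright enough to judge differed by 2-fold. Of the 20 probe sets, 10 were above the floor on both arrays, 3 on the wild-type array only, 1 on the array labelled knockout only and 6 on neither. A 2-fold difference can be seen only where the higher signal reaches 332, and the floor kept 6 of the 14 above it from showing one. Of the other 8 probe sets, 0 were 2-fold lower, against 1.44% of 14765 such probe sets on the array, and 0 were 2-fold higher, against 0.955%. With no floor, 5 of the 20 were 2-fold lower, against 12.0% of all 34945, and 3 were 2-fold higher, against 6.32%. These 8 each had at least 1 signal below the floor. Of the 14 above the floor, 10 were lower on the array labelled knockout, 3 were higher and 1 read the same to 2 decimals, where 54.8% of all probe sets were lower. Their median log2 ratio was -0.25, against -0.04 for all. All 14 lay within the central 95% of the ratios of probe sets with like signal. The floor fixed this in advance for the bounds and the dimmest Fgfr1 probe set, because it limits the ratio possible at such signals.

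**Figure D1:**
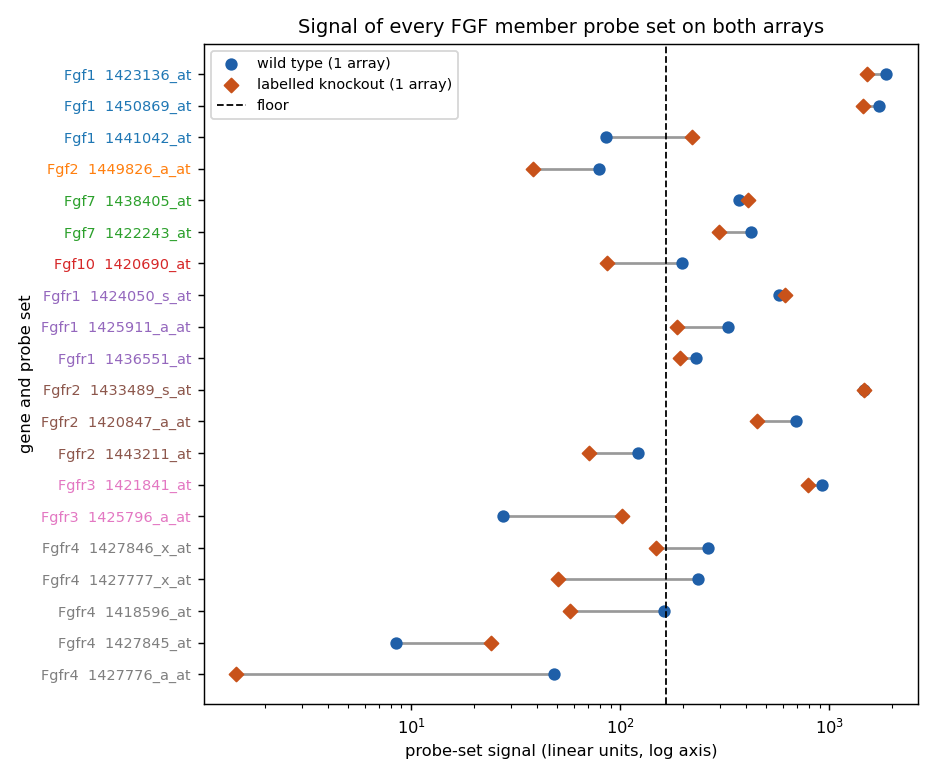
Signal of each of the 20 probe sets (log axis, linear signal units) on the wild-type array (blue circles) and the array labelled knockout (orange diamonds), 1 array each. Grey bars join the readings of a probe set, and the dashed line is the floor of 166, below which 6 probe sets lay on both arrays.

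Among the ligands, Fgf1 read slightly lower. Fgf1 encodes acidic FGF, which can activate all the FGF receptors. Its brightest probe set read 1862 in wild type and 1518 in the array labelled knockout, 1.23-fold lower, and the next read 1716 and 1447, 1.19-fold lower. Their log2 ratios were 0.05 apart. Of the 4497 genes that had several probe sets measured on both arrays, 5.09% had a narrower range. The third Fgf1 probe set went the other way, from 85.2, below the floor, to 220, at least 1.33-fold higher.

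Fgf7, the epithelial growth factor of prostatic stroma, gave opposite readings. Its brighter probe set read 369 and 410, 1.11-fold higher on the array labelled knockout. The other read 421 and 297, 1.41-fold lower. The log2 ratios were 0.15 and -0.50, 0.65 apart. The median range from lowest to highest ratio of a gene was 0.43 over the 4497 genes, some of which had more probe sets. No direction can be given for Fgf7 from these arrays.

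Fgf10, the ligand that drives prostatic budding, was measured by 1 probe set near the floor. It read 197 in wild type and 86.3 in the array labelled knockout, at least 1.19-fold lower. With the values as deposited and no floor, the Fgf10 reading was 2.28-fold lower and its log2 ratio -1.19. At such low signals large ratios were common. Without a floor 10.4% of all genes were at least 2-fold lower, as were 2 of the 8 members, Fgf10 and Fgf2. With the floor at the 30th percentile 3.38% of all genes were, and Fgf10 alone of the 8 members.

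Fgf2, basic FGF, read 79.1 and 38.4 in its only probe set, below the floor on both arrays. The Fgf2 values therefore give no ratio here.

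Fgfr1, a receptor of mesenchymal cells in many tissues, had 3 probe sets that spread widely. The brightest, of the type named _s_at, read 577 and 614, a log2 ratio of 0.09. Another, of the type named _a_at, whose probes are shared by alternative transcripts of a gene, read 326 and 187, 1.74-fold lower. Only 2.71% of all probe sets had a lower ratio. The third read 231 and 194, a log2 ratio of -0.25. The Fgfr1 range of 0.89 was wider than that of 85.9% of the 4497 genes, whose numbers of probe sets differ. A range tends to widen with that number.

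Fgfr2, the epithelial receptor of FGF7 and FGF10, had the same kind of split. Its brightest probe set read 1465 in wild type and 1468 in the array labelled knockout, and its log2 ratio was 0.00. An _a_at probe set read 690 and 452, 1.53-fold lower, and 6.79% of all probe sets had a lower ratio. The third read 121 and 71.3, below the floor on both arrays. The Fgfr1 and Fgfr2 probe sets that read alternative transcripts were thus the lowest of their genes above the floor. Which splice forms they cover is not given in the files.

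Fgfr3 read 926 and 790 in its brighter probe set, 1.17-fold lower. The other Fgfr3 probe set read 27.6 and 102, below the floor on both arrays, and went the other way.

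Fgfr4, a receptor best known in liver, was above the floor on the wild-type array only. Its brightest probe set read 264 and 148, at least 1.59-fold lower, and a second read 236 and 50.2, at least 1.42-fold lower. Both are _x_at probe sets, which hold probes that can match other sequences. The other 3 lay below the floor on both arrays, at 161 and 57.4, at 48.1 and 1.46, and at 8.45 and 24.0. With no floor, 4 of the 5 Fgfr4 probe sets were lower on the array labelled knockout and 1 was higher.

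**Figure D2:**
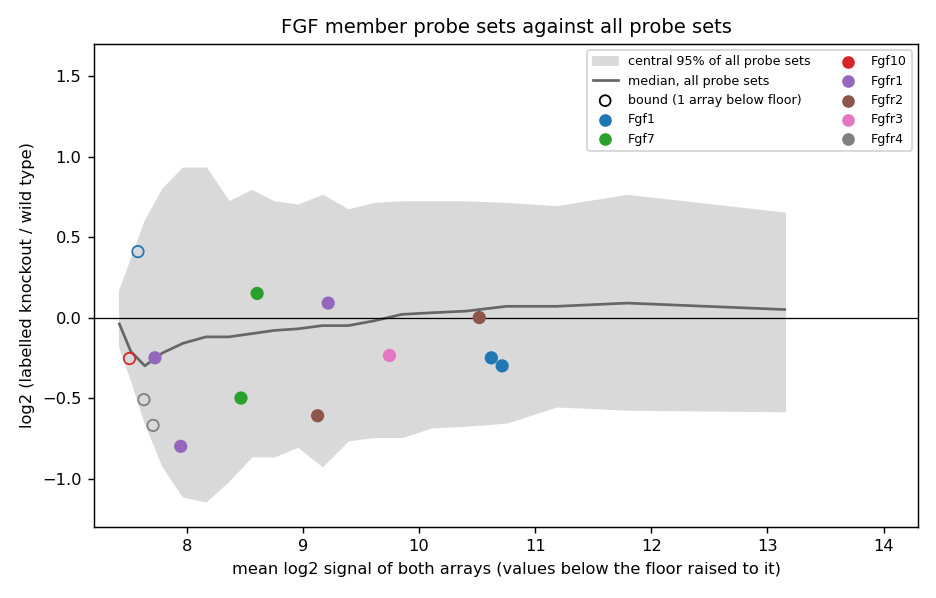
Log2 ratio of the array labelled knockout over wild type (vertical) against mean log2 signal (horizontal) for the 14 FGF probe sets above the floor, with bounds as open circles. The line and grey area give the median and the central 95% over 20 bins of all probe sets above the floor. All 14 points lie inside the area, which the floor fixed in advance for the bounds and the dimmest Fgfr1 point.

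Dimmer probe sets tended to be lower on the array labelled knockout across the whole array. Among probe sets whose higher signal lay between 166 and 332, 64.6% were lower, and among those above 1328, 42.0%. The part of this trend in the FGF readings was not tested. The FGF probe sets, several of them from the same gene, were also read under other scalings. Under a loess fit of ratio on signal, 12 of them stayed above the floor, with 9 lower and a median of -0.26, against 44.6% lower and a median of 0.04 for all probe sets. Under quantile normalization 11 of 14 were lower, with a median of -0.27, against 49.8% and 0.00 for all.

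With each gene represented by its brightest probe set, 7 of the 9 members were above the floor. Of these, Fgf1, Fgf10, Fgfr3 and Fgfr4 were lower, 4 of 7, where 53.0% of all 11671 genes were lower. Their median log2 ratio was -0.23, against -0.03 for all genes. Of the 7, 0 were 2-fold lower and 0 were 2-fold higher, against 0.883% and 0.591% of all genes, but the floor kept 2 of them, Fgf10 and Fgfr4, from reaching 2-fold. At 1.5-fold, which Fgf10 could not reach either, Fgfr4 was lower, 1 of 7, where 6.26% of all genes were. With the median over a gene's probe sets in place of the brightest, 7 of 7 were lower, from -0.18 for Fgf7 to -0.59 for Fgfr4, where 57.7% of all genes were lower. The direction for Fgf7, Fgfr1 and Fgfr2 thus depended on the probe set.

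**Figure D3:**
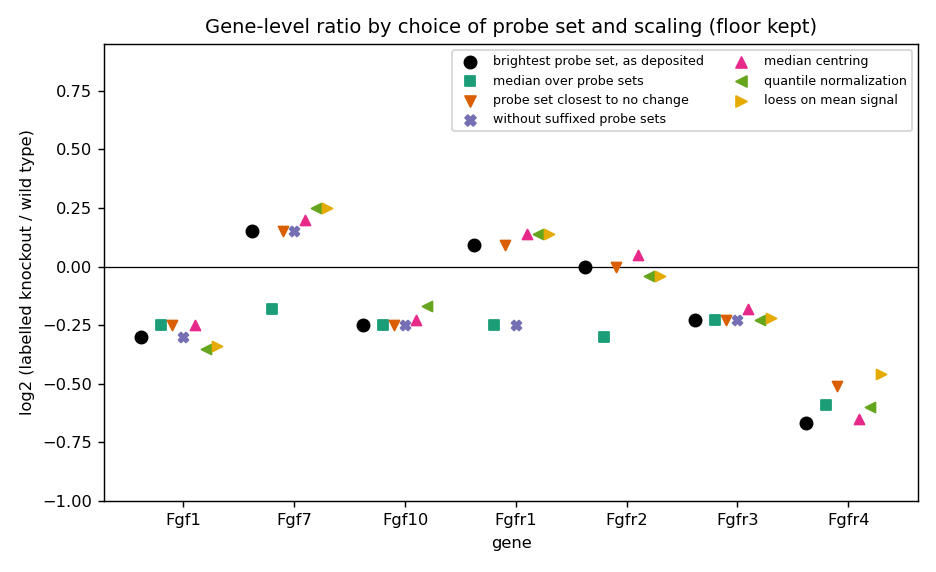
Gene-level log2 ratio (vertical) of the 7 FGF genes above the floor (horizontal) with the brightest probe set as deposited (black) and under 3 other choices of probe set and 3 scalings. Fgf1, Fgf10, Fgfr3 and Fgfr4 stay below 0 under each setting that gives them a value, whereas Fgf7, Fgfr1 and Fgfr2 cross it. Fgf10 has no value under loess. Fgfr2 and Fgfr4 have none with probe sets named _s_at, _x_at or _a_at left out.

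The cells that make and receive these signals were read through marker genes. Sums of signal take the brightest probe set of every listed gene that has one, genes below the floor included. Beside the counts for the marker and pathway lists, 53.0% of all 11671 genes above the floor were lower, with a median of -0.03. Those 11671 were among 18193 genes with a probe set. Smooth muscle markers were lower in 10 of 11 genes, with a median of -0.52. Their summed signals were 58348 in wild type and 44033 in the array labelled knockout. Such a sum rests mainly on its brightest probe sets and does not weigh the genes alike. Calponin Cnn1 was lowest at -0.87, then the myosin light chain Myl9 at -0.86, while Mylk at -0.09 and Lmod1 at 0.04 were highest. Fibroblast markers were lower in 10 of 12 genes, with a median of -0.19 and sums of 38335 and 36423. The matrix gene Fbln2 was 2.17-fold lower and the receptor Pdgfra 1.72-fold lower, whereas Fbln1 at 0.09 and Gsn at 0.25 were highest. Another Fbln1 probe set read -0.90, and 2 of the other 4 for Gsn were opposite. Most of these stromal markers were lower on the array where Fgf10, a bound near the floor, and the second Fgf7 probe set were lower. The brighter Fgf7 probe set was higher there. Any part of the stromal markers in those readings was not tested. In whole tissue, fewer cells of a type and less RNA per cell cannot be told apart.

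Luminal markers, which define the secretory epithelium of the labelled tissue, had 9 of 12 genes listed, all of them above the floor in both samples. Of these, 6 were lower, where 53.0% of all genes were, with a median of -0.05 and sums of 181657 and 167125. They ran from Spdef at -0.56 and the secreted Pbsn at -0.38 to Krt8 at 0.17 and Tmprss2 at 0.53, the last with 1 of 2 other probe sets opposite. Basal markers had a median of -0.29, 2 of 4 lower, from Jag2 at -0.73 and Krt5 at -0.62 to Krt15 at 0.04 and Trp63 at 0.09. The other Jag2 probe set read 0.10. Their summed signals were 2364 and 1872. Krt14 was below the floor on both arrays. Endothelial markers were lower in 4 of 7 genes, with a median of 0.00 and sums of 2497 and 2248, from Emcn at -0.72 and Esam at -0.68 to Eng at 0.06 and Cldn5 at 0.13. Pecam1 and Vwf were below the floor. Leukocyte markers were lower in 2 of 6, with a median of 0.12 and sums of 4181 and 4154, from Cd68, a bound of -0.58, and Lyz2 at -0.47 to Cd14 at 0.22 and Ptprc at 0.33, and the lymphocyte genes Cd3e and Cd79a were below the floor.

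Markers of tissue that can be taken with the lobe were also read. Adipocyte markers were higher in 2 of 4 genes, a median of 0.22 and sums of 1376 and 1946, from Plin4 at -0.31 and Retn at -0.18 to the adipokine Adipoq, a bound of 0.62, and Fabp4 at 0.84, whose other probe set read 0.03. Urothelium markers were lower in 3 of 4 genes, with a median of -0.54 and sums of 6797 and 4887, from Upk3a, a bound of -0.61, and Upk1b at -0.58 to Upk1a at -0.50 and Upk2 at 0.17. The other 3 Upk1b probe sets above the floor were much lower, from -2.27 to -2.03. Skeletal muscle markers had 2 of 5 genes above the floor, Acta1 at -0.77 and Ckm at -0.05, with a median of -0.41 and sums of 2094 and 1425. Nerve markers had 2 of 5, Mbp at -0.14, with 2 of 5 other probe sets opposite, and Sox10 at 0.02, with a median of -0.06 and sums of 1547 and 1420. Seminal vesicle markers had 0 of 6 above the floor on either array, with sums of 345 and 180.

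Most remaining FGF ligands were not measured above the floor. Of 18, 14 were below the floor on both arrays, among them the developmental ligands Fgf8 and Fgf9. Of all 18193 genes with a probe set, 11671 were above the floor. Fgf22 was lower with a bound of -0.52, Fgf4 read -0.36, Fgf13 -0.27, and Fgf3 was higher with a bound of 0.42. The median of the 4 was -0.31, and under loess it was 0.21.

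Co-receptors and FGF-binding proteins had 15 of 19 genes above the floor, 10 of them lower, with a median of -0.04. Of all genes above the floor, 53.0% were lower. The glypican Gpc3 read 354 and 236, or -0.58 on the log2 scale. The syndecan Sdc3 was 1.48-fold lower, with -1.18 and -0.28 in its other probe sets. The secreted carrier Fgfbp3 was 1.21-fold higher, and the syndecan Sdc2 was 1.35-fold higher with its other 2 probe sets opposite. Kl and Klb, the co-receptors of endocrine FGFs, were below the floor on both arrays. Enzymes that build or trim heparan sulfate had 13 of 18 above the floor, 6 lower, with a median of 0.00. Ndst4 was at least 1.83-fold lower and the sulfatase Sulf1 was 1.17-fold lower, with -0.93 in its other probe set. Extl2 was 1.10-fold higher, with 0.44 in its other probe set. The polymerase Ext1 read 299 and 420, or 0.49 on the log2 scale, its other probe set being opposite.

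Downstream of the receptors, the adaptor genes read higher in their brightest probe sets. Of 12 above the floor 11 were higher, with a median of 0.38, where 53.0% of all genes were lower. Grb2, which links FRS2 to the RAS activator SOS, was 1.72-fold higher and the scaffold Gab2 1.69-fold higher, while Shc1 was 1.29-fold lower and Plcg1 1.03-fold higher. The median was -0.07 with the median over each gene's probe sets and 0.01 with the one nearest to no change. The direction of the adaptor list therefore rested on the probe set chosen. The other probe sets of Grb2 and Gab2 read lower, at -0.16 for Grb2 and at -0.39 and -0.33 for Gab2.

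Feedback inhibitors had a median of 0.05, with 5 of 8 higher. Sprouty-2, Spry2, read 1984 and 3027, 1.53-fold higher with no other probe set above the floor, and Spred2 was 1.52-fold higher with 1 of 2 other probe sets opposite. The FGF receptor antagonist Il17rd was 1.30-fold lower and the ERK phosphatase Dusp6 1.26-fold lower. Genes that FGF and ERK signalling is known to raise had a median of -0.08, 6 of 8 lower, where 53.0% of all genes were. Ier2 was 1.46-fold lower and Dusp5 at least 1.30-fold lower, whereas the cyclin Ccnd1 was 1.11-fold higher and Phlda1 1.25-fold higher. By its brightest probe set, none of the feedback or target genes above the floor differed by 2-fold. Other probe sets did so for Cbl, at -1.12, and for Spred1, at 1.05, both feedback inhibitors.

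Regulators of FGF receptor splicing had a median of 0.29, 8 of 12 higher, and -0.02 with probe sets named _s_at, _x_at or _a_at left out. Esrp1, which promotes the epithelial form of FGFR2, read 3232 and 4001, 1.24-fold higher, and its relative Esrp2 was 1.31-fold lower with an opposite probe set. Hnrnpm was 1.88-fold higher and Tia1 1.61-fold higher, while Rbfox2 was 1.45-fold lower and Ptbp1 1.36-fold lower with an opposite probe set.

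**Figure D4:**
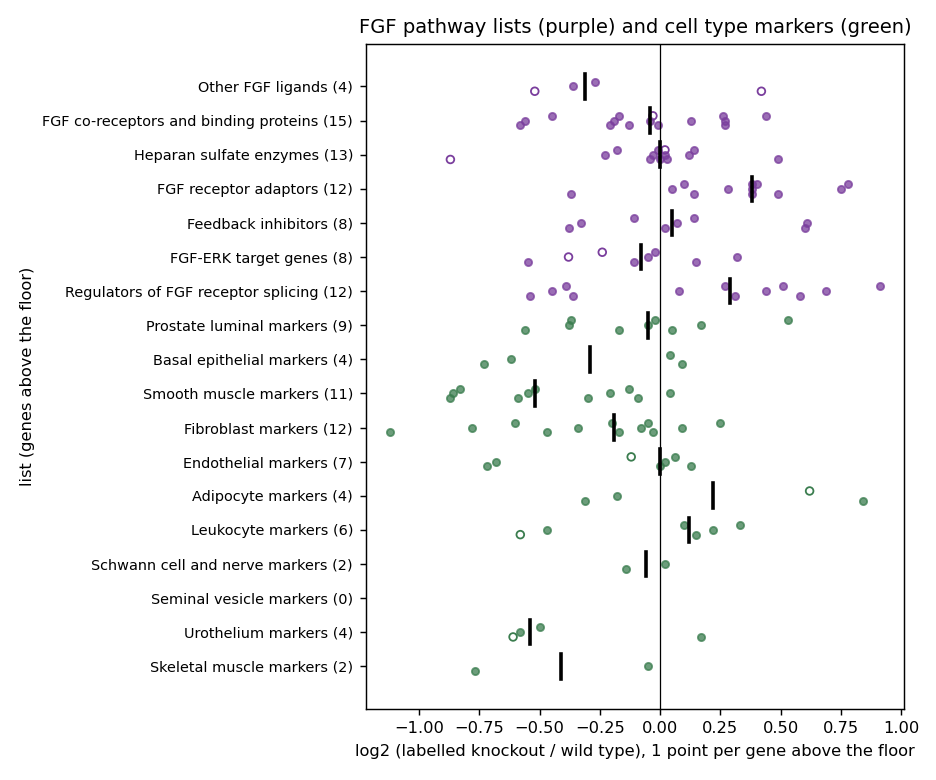
Log2 ratio (horizontal) of each gene above the floor in 7 FGF pathway lists (purple) and 11 marker lists (green), by its brightest probe set, with the list median as a black bar and bounds as open circles. The bracket after each list gives its genes above the floor. Smooth muscle markers lie mostly below 0 and receptor adaptors mostly above it. Of all genes above the floor, 53.0% were lower.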

How the data were processed

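The deposited values were linear probe-set intensities of 2 arrays. GCOS 1.4 is named by the submitters' processing notes, with settings not given in the sources used here. From the values, both arrays had been scaled as a whole, with single genes not normalized between them. Of 45037 non-control probe sets, 34945 had 1 gene symbol in the platform annotation, 932 several and 9160 none, and 34741 were matched by Entrez ID to a GRCm38.p6 gene table. Probe sets below 166 on both arrays gave no ratio. The brightest probe set, by mean log2 signal of both arrays, stood for its gene. Values were computed in Python 3.11.15 with pandas and numpy and tested on simulated arrays. No pseudocount was added, and the number of arrays limits the precision.

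All members with every probe set, Eaf2, and up to 2 highest and 2 lowest genes of each of 7 pathway and 11 marker lists were named. The members and lists were chosen with earlier results of these data known. Alternatives were 3 scalings, 3 floors, a pseudocount of 50, 3 other choices of probe set per gene, and thresholds of 1.5-fold and 3-fold. Loess used a span of 0.4.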

Additional observations from a re-analysis of the deposited data

How the results depend on the processing

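No member gene was 2-fold higher under the main settings or any of the 12 alternatives. The floor as reported kept 2 of the 7 genes, Fgf10 and Fgfr4, from reaching 2-fold. The count of genes 2-fold lower, 0 as reported, was 1 for a floor at the 30th percentile, 2 without any floor and 1 at a 1.5-fold threshold. The count of member genes lower by any amount, 4 of 7 as reported, was 2 of 4 for a floor at the 70th percentile and 7 of 7 by the median over probe sets. The members' median stayed negative in all 10 alternatives that give one, from -0.26 to -0.11. Fgf10, -0.25 as a bound, was -1.19 with a lower floor or none and -0.86 with the pseudocount. Medians of all genes lay between -0.07 and 0.04. The SD between probe sets of a gene was 0.357 on the log2 scale and covers only differences between probe sets on these 2 arrays. Animals, dissection and hybridisation have no replicate here. No paired analysis was possible because each group holds 1 sample.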
